A study of Mus musculus with 2 samples.

Results

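The SOX genes encode transcription factors that share an HMG-box DNA-binding domain and bend DNA at short sites related to ACAAAG and ACAATG, usually beside a partner factor. In the hippocampus SOXB1 factors such as Sox2 keep neural stem cells undifferentiated, SOXC factors (Sox4, Sox11) drive the start of neuronal differentiation, and SOXE factors (Sox8, Sox9, Sox10) set glial fate. SOXD factors (Sox5, Sox6) lack a transactivation domain and act with other SOX proteins, and the SOXF factor Sox17 is known for its role in arterial endothelium. The members followed here were Sox2, Sox4, Sox5, Sox6, Sox8, Sox9, Sox10, Sox11, Sox17 and Sox21. These 10 genes were chosen by name and all 10 were found by symbol among the 32285 genes of the deposited matrix.

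The cells came from mice at postnatal day 30 and from the dentate gyrus, a part of the hippocampus that keeps adding granule neurons after birth. The control sample carried the Nestin-Cre transgene with intact Phf2 (Phf2+/+), and the conditional knockout (cKO) carried Nestin-Cre with Phf2flox/flox, so both carried the Cre. Tissue of 4 mice of each genotype entered 1 droplet library each. Cre driven by Nes regulatory sequence recombines in neural progenitors and so in the neurons and macroglia that descend from them, while microglia and vessel cells come largely from other lineages. Which library holds which genotype is stated in no source used here, so the libraries are called 1 and 2 and control and cKO were not compared.

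After filtering, 8029 cells of library 1 (median 8092 UMIs, unique molecular identifiers that count captured messenger RNA molecules) and 8129 cells of library 2 (median 7232 UMIs) remained, and the libraries shared 22 barcodes. Clustering without the Sox genes gave 33 clusters, which were named from marker genes into 22 classes with at least 20 cells in each library. Granule neuron-like cells with Prox1 and C1ql2 were present but few, 49 and 106 cells in libraries 1 and 2, and microglia-like cells were the most numerous class, 2924 and 2465. Levels are given as CPM, the UMIs of a gene scaled so that all UMIs of a class in a library sum to the same total, for library 1 and then library 2. Because the assay tags the 3' end and the levels are not per length, levels of different genes were not compared. Cells of 1 library are not replicates, and the exact Poisson intervals cover counting error only. RNA outside cells, read from barcodes under 100 UMIs, held Sox11 at 363 and 393 CPM, Sox4 at 359.5 and 363, Sox9 at 72.3 and 136 and the other members at 7.35 to 67.0 CPM. Free RNA made up an estimated 1.03% to 11.9% of the UMIs of a class, except 17.2% in COP-like cells of library 2 and 35.2% and 53.7% in erythroid-like cells.

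Windows of 250 bases upstream of RefSeq transcript starts (GRCm38.p6) were available for 7 of the 10 members, all but Sox9, Sox10 and Sox17. The windows of Sox2, Sox21, Sox4 and Sox11 are shown as the SOXB and SOXC members. Of these, Sox2 and the SOXC genes are known for opposite roles in stem cells and their neuronal progeny. Capitals mark the SOX core letters ACAAAG or ACAATG on either strand.
Sox2 (chr3:34649745-34649994, plus strand): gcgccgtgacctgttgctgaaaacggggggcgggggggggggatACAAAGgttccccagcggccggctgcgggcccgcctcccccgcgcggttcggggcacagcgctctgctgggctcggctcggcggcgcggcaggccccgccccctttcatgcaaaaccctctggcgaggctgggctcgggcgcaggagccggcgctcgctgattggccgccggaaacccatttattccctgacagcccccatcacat
Sox21 (chr14:118237031-118237280, minus strand): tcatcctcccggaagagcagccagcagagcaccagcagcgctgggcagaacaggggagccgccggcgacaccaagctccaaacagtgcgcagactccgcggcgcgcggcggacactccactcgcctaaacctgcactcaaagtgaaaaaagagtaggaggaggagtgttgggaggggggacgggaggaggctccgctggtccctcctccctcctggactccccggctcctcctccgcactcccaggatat
Sox4 (chr13:28953700-28953949, minus strand): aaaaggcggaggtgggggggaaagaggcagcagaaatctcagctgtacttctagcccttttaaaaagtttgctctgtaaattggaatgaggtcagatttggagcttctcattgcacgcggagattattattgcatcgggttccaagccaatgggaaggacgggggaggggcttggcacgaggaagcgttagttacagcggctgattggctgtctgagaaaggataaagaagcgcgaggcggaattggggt
Sox11 (chr12:27342719-27342968, minus strand): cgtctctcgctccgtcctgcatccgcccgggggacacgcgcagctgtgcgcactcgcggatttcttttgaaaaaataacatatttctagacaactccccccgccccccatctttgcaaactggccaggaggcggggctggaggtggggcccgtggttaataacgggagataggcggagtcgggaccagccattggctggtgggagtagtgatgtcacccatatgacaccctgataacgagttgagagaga
A core was found 1 time in the Sox2 window and in none of the windows of Sox21, Sox4, Sox11 and Sox8. Sox5 had 1 match in its window, and the 6 windows of alternative Sox6 starts held 0 to 4. Of all 32851 windows of this length in the table, 25.2% held at least 1 core, and a match is a description of letters and not of binding. The GC box GGGCGG (either strand) was found 2 times each in the Sox2, Sox11 and Sox8 windows, 4 times in 1 of the 6 Sox6 windows, in no other member window, and in 32.7% of all windows.

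The genes themselves lie on 10 different chromosomes (mm10, GENCODE M21 gene models). Sox2 (chr3:34650405-34652461), Sox4 (chr13:28948919-28953713), Sox11 (chr12:27334264-27342574) and Sox21 (chr14:118233232-118237030) are single-exon genes. Sox2 lies inside an intron of Sox2ot on the same strand, so Sox2 counts cannot be told apart from unspliced Sox2ot RNA; Sox2ot stood at 481 and 514 CPM in oligodendrocyte-like cells and at 45.9 and 61.3 in radial glia-like (RGL-like) cells. Exons of Sox8, Sox17, Sox21 and Sox5 overlap a gene on the other strand (2810468N07Rik, Gm37587, Gm4675 and Sox5os1), those of Sox4 overlap Gm26735 on the other strand, which is not among the counted genes, and whether the counting used strand is stated in no source used here.

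The members differed in the classes where they were highest, and some pairs shared theirs. Sox9 was highest in RGL-like cells, and so was the mean of Sox2, whose range there overlapped that of committed oligodendrocyte precursor-like cells. Sox21 was highest in oligodendrocyte precursor-like cells and lower in astrocyte-like, RGL-like and dividing cells. Sox4 and Sox11 were highest in dividing and neuronal progeny, Sox8 and Sox10 in the oligodendrocyte lineage, Sox6 in its precursors and Sox17 in endothelium. The heatmap of CPM by class shows these blocks, with both libraries of a class side by side.

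**Figure D1:**
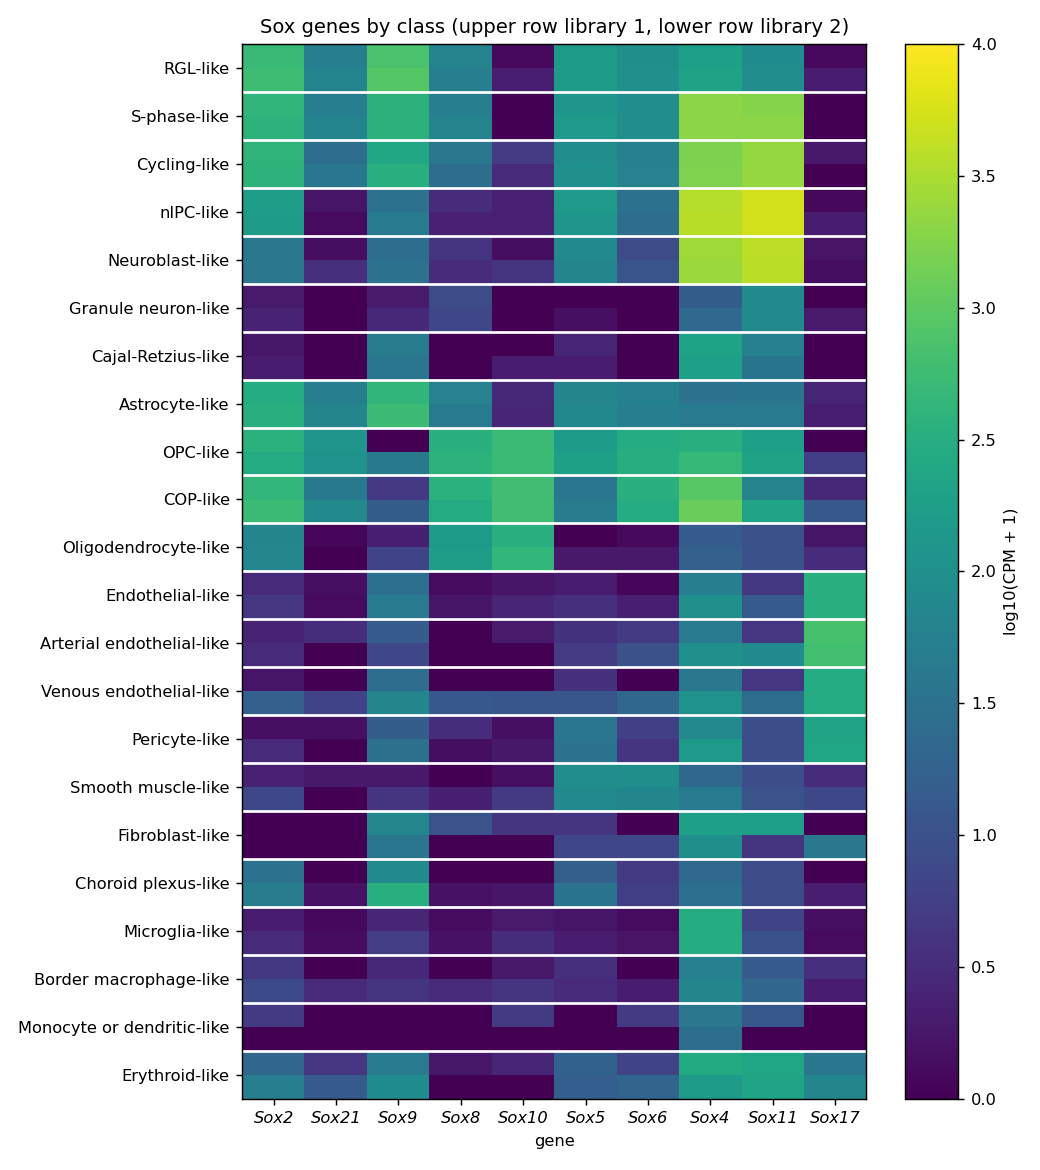
Rows are the 22 marker-defined classes (library 1 above library 2 in each) and columns the 10 Sox genes; colour is log10(CPM + 1). Sox17 is brightest in the endothelial-like and pericyte-like rows, Sox10 in the 3 oligodendrocyte-lineage classes, and Sox4 and Sox11 reach their highest values in nIPC-like cells (5306 CPM for Sox11 in library 1).

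Sox2, the SOXB1 factor that maintains stem cells, stood at 518 and 582 CPM in RGL-like cells, the class with stem cell markers such as Hopx. It was 422 and 381 in S-phase-like cells, 402 and 382 in cycling-like cells with G2/M genes, 165 and 162 in neurogenic intermediate progenitor-like (nIPC-like) cells with Eomes, 39.3 and 37.5 in neuroblast-like cells and 0.936 and 1.41 in granule neuron-like cells. Both libraries put nIPC-like cells between the dividing classes and neuroblast-like cells, with no overlap, while the S-phase-like and cycling-like ranges overlapped. Sox9, a SOXE factor of stem cells and astroglia, was 704 and 874 in RGL-like, 369 and 367 in S-phase-like, 239 and 322 in cycling-like, 30.4 and 42.9 in nIPC-like and 26.5 and 29.7 CPM in neuroblast-like cells. Sox9 was thus already low in nIPC-like cells, where Sox2 kept an intermediate level. Sox21, a SOXB2 factor known to counter SOXB1 activity, was 49.9 and 63.1 in RGL-like and 49.8 and 61.7 in S-phase-like cells. It was 26.5 and 36.2 in cycling-like cells and 0.665 and 0.333 in nIPC-like cells. Sox8, a SOXE gene known mainly from oligodendrocytes, was 61.5 and 49.7 CPM in RGL-like, 51.2 and 60.6 in S-phase-like and 2.22 and 1.33 in nIPC-like cells, and Sox10 and Sox17 were at most 3.87 CPM in any neurogenic class.

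The SOXC genes ran the other way. Sox11 was 87.8 and 91.2 CPM in RGL-like, 1808 and 1980.3 in S-phase-like, 2313 and 2313 in cycling-like, 5306 and 5364 in nIPC-like, 3957 and 3871 in neuroblast-like and 77.7 and 79.8 in granule neuron-like cells. Sox4 was 177 and 199.8, 1981 and 1989, 1628 and 1689, 3634 and 3689, 2693 and 2544 and 14.0 and 22.5 CPM in the same classes. Both genes were highest in nIPC-like cells and had low values at the 2 ends of this series. After the estimated free RNA was subtracted, RGL-like cells kept 80.5 and 82.5 CPM of Sox11. The SOXD genes differed from each other: Sox5 held 149 and 151 CPM in RGL-like, 126 and 146 in S-phase-like, 91.7 and 101 in cycling-like and 139.9 and 126 in nIPC-like cells, while Sox6 went from 95.5 and 99.4 to 31.0 and 25.6.

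**Figure D2:**
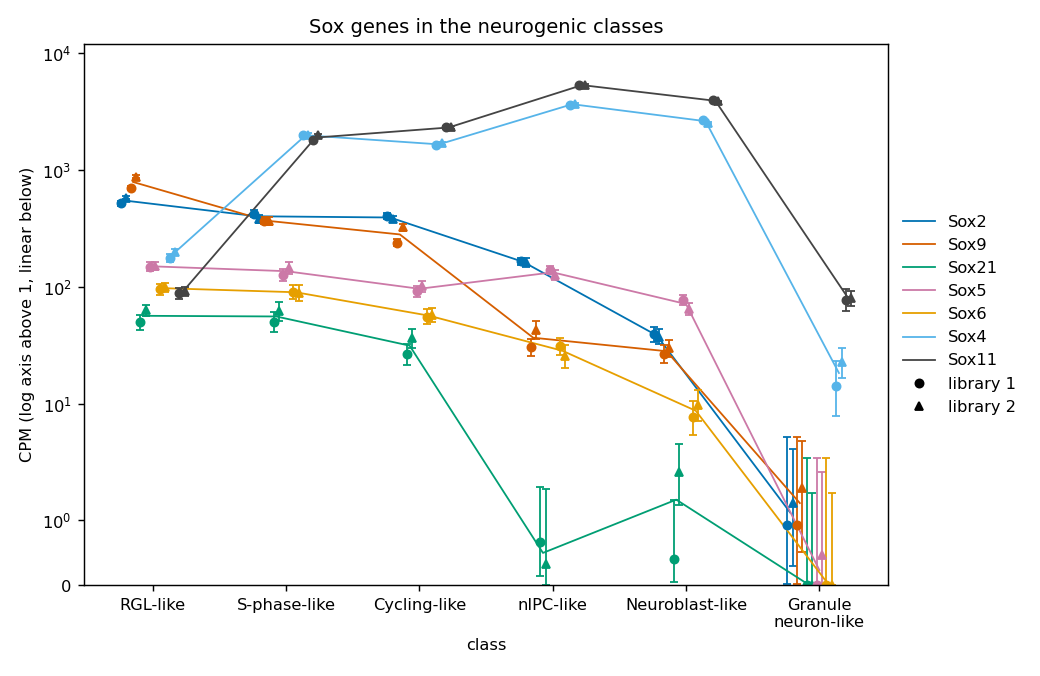
CPM of 7 Sox genes (log axis above 1, linear below) in 6 neurogenic classes; circles are library 1, triangles library 2, bars exact Poisson 95% intervals and lines the mean of both libraries. Sox4 and Sox11 peak in nIPC-like cells, Sox9 and Sox21 are low from nIPC-like cells on, and Sox5 is lower in cycling-like than in RGL-like, S-phase-like and nIPC-like cells.

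To ask which members differ between stem cells and committed progeny, nIPC-like and neuroblast-like cells were summed and tested against RGL-like cells with edgeR. Of 8 members that passed the filter on low counts, 2 were called higher and 6 lower at an adjusted p under 0.05; Sox10 and Sox17 were not tested. Over all 13211 genes tested, 36.2% were called higher and 36.3% lower, and the median log2 difference was 0.01, against -2.59 for the 8 members. Sox11 was 5.59 ± 0.09 (SE) and Sox4 3.95 ± 0.09 (SE) higher on the log2 scale, 48.0-fold and 15.5-fold. Among the lower members, log2 differences were -5.76 ± 0.23 (SE, adjusted p = 1.07e-137) for Sox21, -4.71 ± 0.10 (SE) for Sox9, -4.68 ± 0.20 (SE, adjusted p = 3.70e-119) for Sox8, -2.63 ± 0.09 (SE, adjusted p = 1.55e-187) for Sox2, -2.55 ± 0.12 (SE, adjusted p = 5.26e-93) for Sox6 and -0.69 ± 0.09 (SE, adjusted p = 2.12e-13) for Sox5. All 8 differences had the same sign in both libraries and all 8 calls held under each of the 10 alternatives run; the largest adjusted p among these was 0.0053, for Sox5, and for the other 7 members it was at most 3.09e-07, for Sox21. For Sox21 the differences were -6.41 and -5.23 within libraries 1 and 2. With nIPC-like cells alone as progeny the Sox2 difference was -1.88 and that of Sox5 -0.30, and with neuroblast-like cells alone they were -3.90 and -1.14. With 2 libraries each gene has only 1 residual degree of freedom, so these p-values rest largely on a spread that edgeR shares across genes. They do not measure the spread between mice, and their small size is not evidence from many replicates.

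Genes that work with these factors were read from short lists. Of the other SOX genes tested here, Sox1, Sox3 and Sox13 were lower in the progeny (log2 differences -3.76 ± 0.12 (SE), -6.64 ± 0.50 (SE) and -2.86 ± 0.30 (SE)), and Sox12, the remaining SOXC gene, was 1.82 ± 0.16 (SE) higher. Sox3 had 2 UMIs in the progeny and 116 in RGL-like cells. Of 3 genes described as SOXC targets, Tubb3 (neuronal tubulin) was 6.88 and Map2 (a microtubule protein of neurons) 1.26 higher, and Tead2 did not pass the test (0.03). Of 6 SOXB1 partner genes tested, 4 were lower, among them Pax6 (-1.28), Pou2f1 (-0.69) and Pou3f3 (-0.29), and the chromatin remodeller Chd7 was 0.71 higher. Of 4 genes tied to SOX9 with NFIA, Zcchc24 (-5.72) and Mmd2 (-2.08) were lower while Nfia (1.62) and Apcdd1 (1.01) were higher, so this list did not move as 1 group.

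Dividing cells carried both sets of factors. With every cell thinned to 1000 UMIs, Sox2 and Sox11 were both detected in 23.3% and 21.8% of S-phase-like cells (libraries 1 and 2), 21.6% and 21.4% of cycling-like cells, 15.2% and 12.9% of nIPC-like cells and 2.27% and 2.97% of RGL-like cells. In microglia-like cells, which should lack both genes, no cell had both. Before thinning the shares were 91.7% and 91.0% in S-phase-like cells at median depths of 15267 and 13230 UMIs, and 0.103% and 0.162% in microglia-like cells at 7814.5 and 6894.0. The thinned share with Sox9 and Sox11 together was 16.5% and 15.8% in S-phase-like cells and 2.88% and 6.29% in nIPC-like cells. Sox4 and Sox11 were found together in 94.2% and 95.0% of nIPC-like and 0.698% and 1.98% of RGL-like cells. In S-phase-like cells the unthinned joint shares were close to the product of the single shares (91.8% and 91.0% for Sox2 with Sox11). Both genes were found in most of these cells, so the joint share could only lie near the product and nothing is read from it.

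Granule neuron-like cells had little of most members. Against neuroblast-like cells, 6 of 7 members tested were lower and 1 was higher; Sox10, Sox17 and Sox21 were not tested. The background was 32.6% lower and 32.8% higher among 11766 genes, with a median of -0.03 over all genes and -5.59 over the 7 members (-4.85 with Sox6 at its bound). Sox4 was -7.01 ± 0.13 (SE) and Sox11 -5.59 ± 0.10 (SE) on the log2 scale. Sox11 kept 77.7 and 79.8 CPM in granule neuron-like cells, and after subtraction of free RNA 72.1 and 72.9. Sox6 had 0 UMIs in granule neuron-like cells of both libraries against 82 in neuroblast-like cells, at least 9.22-fold lower with a floor of 3 counts over the group. For Sox5 the UMIs were 1 and 677, a ratio of CPM, scaled to total counts, of 228 (95% counting interval 40.8 to 9033). Sox2 (4 UMIs in granule neuron-like cells) differed by -4.85 ± 0.42 (SE, adjusted p = 2.48e-30) and Sox9 (5 UMIs) by -4.13 ± 0.43 (SE, adjusted p = 1.53e-20). Sox8 was higher, 1.41 ± 0.54 (SE, adjusted p = 0.0148), from 21 UMIs against 25, and lost its call with DESeq2 (adjusted p = 0.328) and in a fit over all classes (0.0973). Sox6 lost its call with DESeq2 (adjusted p = 0.241). All 3 SOXC target genes were lower in granule neuron-like cells, with log2 differences of -3.74 for Tubb3, -0.75 for Map2 and -5.61 for Tead2.

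RGL-like and astrocyte-like cells, which share much of their expression, differed by small amounts in the stem cell factors. Sox2 was 302 and 332 CPM in astrocyte-like cells against 518 and 582 in RGL-like cells, and Sox9 was 432 and 548 against 704 and 874. For both genes the libraries of the 2 classes did not overlap. In the test, 6 of 8 members were higher in RGL-like cells and 1 was lower, with a background of 22.8% higher and 25.6% lower among 12404 genes. The median was 0.50 over the 8 members and 0.01 over all genes. Sox4 differed most, 1.94 ± 0.11 (SE, adjusted p = 9.54e-11), followed by Sox11 (0.89 ± 0.12 SE, adjusted p = 5.71e-06), Sox5 (0.77 ± 0.09 SE, adjusted p = 2.99e-06) and Sox6 (0.54 ± 0.10 SE, adjusted p = 0.000352). Sox2 was 0.46 ± 0.08 (SE, adjusted p = 7.63e-05) and Sox9 0.35 ± 0.07 (SE, adjusted p = 0.000639) higher, 1.37-fold and 1.28-fold. Sox21 was lower, -0.37 ± 0.11 (SE, adjusted p = 0.0103), although its CPM in the 2 classes overlapped (49.9 and 63.1 against 50.4 and 65.0). Sox8 did not pass, -0.25 ± 0.11 (SE, adjusted p = 0.0731). Scaling to total counts in place of edgeR's trimmed mean (TMM) shifted the all-gene median by 0.34 and left 6 higher and 0 lower members, with Sox21 at -0.03. Sox21 also lost its call with DESeq2, without the library block, in a fit over all classes and with doublets kept. Sox9 lost its call without the library block (adjusted p = 0.0615) and, with Sox11, in a fit over all classes (0.438 and 0.178).

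The other SOXB1 genes were also higher in RGL-like than in astrocyte-like cells, Sox1 by 1.88 ± 0.10 (SE) and Sox3 by 1.65 ± 0.27 (SE), and the SOXD gene Sox13 by 1.17 ± 0.25 (SE). Sox1 stood at 169 and 173 CPM in RGL-like, 163 and 165 in S-phase-like and 24.8 and 22.6 in nIPC-like cells. Of 6 SOXB1 partner genes tested, Chd7 (0.73) and Pax6 (0.43) were higher and Pou3f2 (-0.99) and Pou3f4 (-1.32) lower. Both classes included a shallow cluster with a median under 2500 UMIs and more mitochondrial RNA. Sox9 was 721 and 892 CPM in the deep RGL-like cluster and 459 and 583 in the shallow RGL-like cluster, and 447 and 556 and 345 and 457 in the matching astrocyte-like clusters. Without the shallow clusters the count was 6 higher and 2 lower, Sox8 being then lower (adjusted p = 0.0091).

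The oligodendrocyte lineage showed a SOXE set of its own. Sox10, the SOXE factor that drives myelin genes, was 535 and 536 CPM in oligodendrocyte precursor-like (OPC-like) cells, 600.0 and 589 in committed precursor-like (COP-like) cells and 339.6 and 436 in oligodendrocyte-like cells. In every other class it was at most 10.7 CPM in either library. Sox8, which overlaps with Sox10 in function, was 348 and 384, 355 and 292 and 149.6 and 168 CPM. Both genes were thus present in all 3 classes of the lineage. Sox6 was 297 and 310.4, 349 and 296 and 0.28 and 0.885 CPM in the same classes, and Sox5 was 153 and 189.8, 36.6 and 46.6 and 0 and 0.885. These SOXD factors are known to hold back the maturation of precursors. Sox21 was 123 and 107, 40.2 and 81.5 and 0.14 and 0 CPM, and Sox4 was 318 and 464, 911 and 1220.0 and 13.6 and 15.9, highest in COP-like cells in both libraries. Sox2 was 356 and 284, 439 and 534 and 64.8 and 70.6 CPM.

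**Figure D3:**
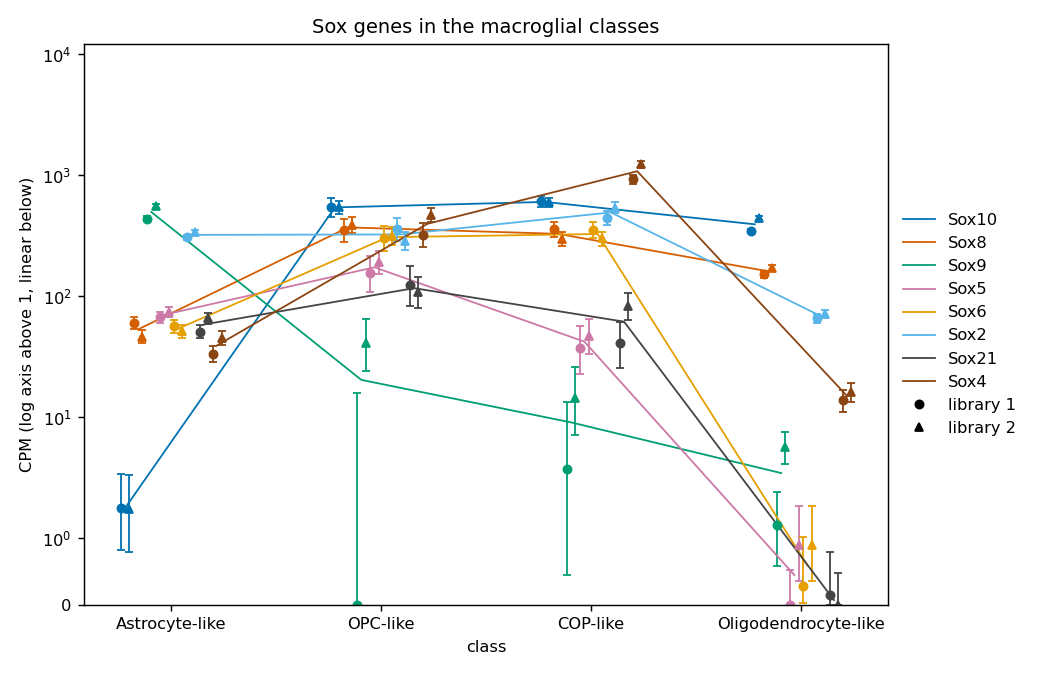
CPM of 8 Sox genes (log axis above 1, linear below) in astrocyte-like and oligodendrocyte-lineage classes; circles are library 1, triangles library 2, bars exact Poisson 95% intervals and lines the mean of both libraries. Sox9 and Sox10 sit at opposite ends in astrocyte-like and OPC-like cells, and Sox5, Sox6 and Sox21 are near 0 in oligodendrocyte-like cells while Sox8 and Sox10 stay above 100 CPM.

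Against oligodendrocyte-like cells, 7 of 9 members tested were higher in OPC-like cells and 0 were lower (edgeR; 0 also at an unadjusted p under 0.05 and with DESeq2; Sox17 was not tested). Among 11445 genes, 20.9% were higher and 21.4% lower, with a median of -0.04 against 3.70 for the 9 members. Sox21 had 77 UMIs in OPC-like and 1 in oligodendrocyte-like cells, a ratio of CPM, scaled to total counts, of 1696 (95% counting interval 295 to 67838). Its edgeR log2 difference, on the TMM scale of the values that follow, was 9.49 ± 0.61 (SE, adjusted p = 1.19e-06). Sox6 was 8.20 ± 0.33 (SE, adjusted p = 6.71e-08) and Sox5 7.75 ± 0.51 (SE, adjusted p = 1.36e-06) higher on the log2 scale, with 9 and 7 UMIs in oligodendrocyte-like cells; within libraries 1 and 2 they were 8.78 and 7.57 for Sox6 and 9.53 and 6.86 for Sox5. Sox4 was 4.01 ± 0.18 (SE, adjusted p = 1.26e-07), Sox11 3.70 ± 0.23 (SE, adjusted p = 9.27e-07) and Sox2 1.496 ± 0.16 (SE, adjusted p = 5.05e-05) higher. Sox8 was 0.49 ± 0.13 (SE, adjusted p = 0.0154) higher, and lost its call with DESeq2 (adjusted p = 0.229), without the filter on low counts (0.14) and in a fit over all classes (0.105). Sox9, with 18 UMIs in OPC-like cells, did not pass (1.75 ± 0.70 SE, adjusted p = 0.0723), but did with total-count scaling (adjusted p = 0.0035) and with a mitochondrial limit of 10% (0.0129). Sox10 did not pass, -0.26 ± 0.14 (SE, adjusted p = 0.162), and its sign depended on scaling: with total counts, which moved the median of all genes by 0.69, it was 0.47 (adjusted p = 0.0085), and without the filter -0.44 (0.0103). Among genes described as SOX10 targets, Gjb1 (-4.50 ± 0.26 SE) and Erbb3 (-3.05 ± 0.25 SE) were lower in OPC-like cells on the log2 scale.

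Between the glial lineages, OPC-like cells had 6 of 9 members higher and 2 lower than astrocyte-like cells, with 18.3% higher and 21.6% lower among 11781 genes. Sox10 was 7.51 ± 0.21 (SE, adjusted p = 3.91e-31) higher and Sox9 -5.08 ± 0.27 (SE, adjusted p = 6.71e-21) lower. Sox9 had 0 UMIs in OPC-like cells of library 1, where the floor of 3 counts corresponds to 12.7 CPM. It had 18 in library 2, 40.2 CPM against 136 in free RNA, and in library 2 alone the difference was -4.48. Sox4 (2.61 ± 0.15 SE, adjusted p = 2.54e-19), Sox8 (2.11 ± 0.15 SE, adjusted p = 5.89e-16), Sox6 (1.81 ± 0.15 SE, adjusted p = 9.47e-14), Sox11 (1.59 ± 0.19 SE, adjusted p = 2.03e-09) and Sox5 (0.59 ± 0.17 SE, adjusted p = 0.0053) were higher, Sox2 was lower, -0.72 ± 0.15 (SE, adjusted p = 8.55e-05) and Sox21 did not pass (0.24 ± 0.21 SE, adjusted p = 0.402). The Sox2 result came with overlapping CPM (356 and 284 against 302 and 332), and with scaling to total counts it was -0.0019 (adjusted p = 0.992), where the split was 7 higher and 1 lower and the median of all genes 0.71. Sox5 lost its call with DESeq2 (adjusted p = 0.354). OPC-like cells numbered 25 and 56, the smallest class in these contrasts.

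Within OPC-like cells, Sox8 and Sox10 were both detected in 84.0% and 87.5% of cells at median depths of 9464.0 and 7566.5 UMIs, and Sox5 and Sox6 in 18 and 39 of 25 and 56 cells. The shares of Sox8 with Sox10 were close to the products of the single shares (84.5% and 87.7%). COP-like cells, at 13918 and 12446 UMIs, had Sox8 with Sox10 in 66.7% and 69.1% of cells and neither gene in 21.4% and 12.7%. Oligodendrocyte-like cells at 23807.0 and 21762.5 UMIs had Sox8 with Sox10 in 88.7% and 90.2% but Sox5 with Sox6 in none. In microglia-like cells no cell had Sox8 with Sox10 or Sox5 with Sox6. After thinning to 1000 UMIs, Sox10 alone was detected in 33.3% and 32.7% of COP-like, 26.5% and 35.4% of oligodendrocyte-like and 0.068% and 0.203% of microglia-like cells.

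Sox17 marked the endothelium and was highest on its arterial side. It stood at 672 and 616 CPM in arterial endothelial-like cells (95% intervals 638 to 708 and 576 to 657), 349.7 and 318 in the main endothelial-like class and 286 and 283 in venous endothelial-like cells. The order was the same in both libraries. Arterial endothelial-like cells were 0.95 ± 0.07 (SE, adjusted p = 7.23e-18) higher on the log2 scale than the other endothelial-like cells, 1.93-fold, and this call held under all 7 alternatives tested, with adjusted p up to 0.0041. In this contrast 3 of 6 members tested were higher and 1 lower, with 11.1% higher and 10.1% lower among 11275 genes and a median of 0.74 over the 6 members. Sox4 (-0.09) and Sox5 (0.54) did not pass. Sox9 was lower, -1.77 ± 0.23 (SE, adjusted p = 4.91e-09), without a call by DESeq2 (adjusted p = 0.212), and was -1.05 and -2.92 within libraries 1 and 2, the latter from 9 arterial UMIs. Its CPM was 13.8 and 6.18 in arterial and 27.7 and 46.7 in the other endothelial-like cells, all below free RNA (72.3 and 136 CPM). Sox6 was 1.95 ± 0.57 (SE, adjusted p = 0.0077) higher from 21 against 27 UMIs, and its adjusted p was 0.195 with DESeq2, 0.447 without the library block, 0.186 in a fit over all classes and 0.0655 with doublets kept, while within libraries 1 and 2 the difference was 4.05 and 1.22. Sox11 was called higher, 2.08 ± 0.24 (SE, adjusted p = 1.98e-10), but 109 of its 122 UMIs in arterial endothelial-like cells of library 2 came from 1 cell, and in library 1 alone the difference was -0.10. Sox11 also lost its call with DESeq2 and, at an adjusted p of 0.301, without the library block.

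Sox18 and Sox13 were higher with Sox17 in arterial endothelial-like cells, by 0.87 ± 0.07 (SE) and 0.85 ± 0.11 (SE). Sox18, another SOXF gene, stood at 638 and 498 CPM there and at 253 and 171 in venous endothelial-like cells, while the SOXF gene Sox7 was 68.0 and 98.2 and 87.2 and 126. Of 6 Notch pathway genes of the endothelium, 5 were higher on the arterial side, among them the ligands Jag1 (1.42), Jag2 (1.08) and Dll4 (0.59) and the receptor Notch1 (0.44).

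Smooth muscle-like cells carried Sox5 and Sox6, and pericyte-like cells Sox5. Sox5 was 89.9 and 82.0 CPM in smooth muscle-like and 36.8 and 32.2 in pericyte-like cells, against 1.05 and 2.47 in endothelial-like cells. Sox6 was 97.3 and 67.9, 4.78 and 3.14 and 0.151 and 1.15 CPM in these classes, and its pericyte-like values lay below the free RNA level of 12.3 and 12.2 CPM. In the contrast of endothelial-like with mural cells, 2 of 8 members tested were higher and 2 lower; 20.3% of 12505 genes were higher and 22.2% lower. Sox5 was -4.50 ± 0.26 (SE, adjusted p = 3.05e-08) and Sox6 -3.95 ± 0.45 (SE, adjusted p = 1.46e-05), both lower in endothelial-like cells. Within libraries 1 and 2 the differences were -5.25 and -3.79 for Sox5 and -5.83 and -2.58 for Sox6. Sox17 was 1.64 ± 0.16 (SE, adjusted p = 4.11e-06) and Sox9 1.32 ± 0.19 (SE, adjusted p = 0.000113) higher. The Sox9 CPM was 24.8 and 39.7 in endothelial-like and 7.30 and 19.0 in mural cells, all below free RNA (72.3 and 136 CPM). Sox2, Sox4, Sox10 and Sox11 did not pass, with log2 differences of 0.45, -0.01, 0.34 and 0.53. Sox7 (1.62), Sox18 (1.61) and Sox13 (0.84) were higher in endothelial-like cells, with Jag2 (1.67), Dll4 (1.59) and Notch4 (1.28), while Jag1 was lower (-1.03).

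The size of the Sox17 and Sox9 differences depended on 1 mural cluster. Pericyte-like cells fell into cluster 21 (median 4246 UMIs), with Sox17 at 1.63 and 3.94 CPM, and cluster 22 (median 20172 UMIs), with Sox17 at 300.1 and 284. The second-best marker list of cluster 22 was the endothelial list. Without cluster 22 the Sox17 difference was 6.65 and that of Sox9 3.38; whether endothelial RNA or doublets set these values was not tested. Sox5 was 86.3 and 84.7 CPM in cluster 21 and 16.2 and 19.1 in cluster 22.

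**Figure D4:**
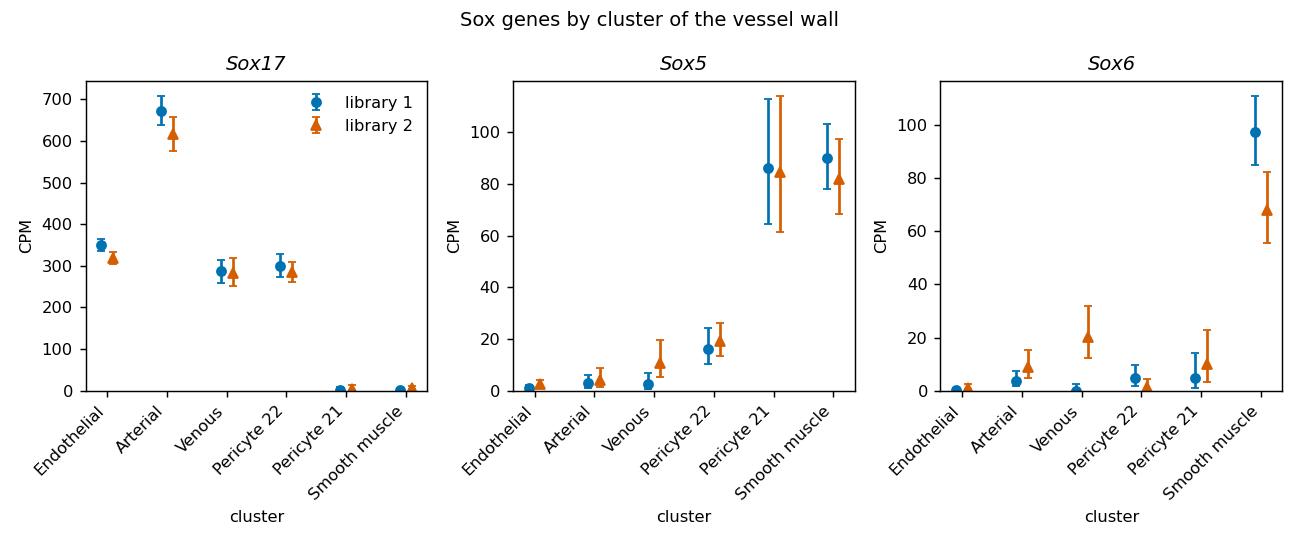
CPM (linear axes from 0) of Sox17, Sox5 and Sox6 in 6 clusters of the vessel wall; circles are library 1, triangles library 2 and bars exact Poisson 95% intervals. Sox17 is highest in the arterial cluster and near 0 in pericyte cluster 21 and smooth muscle, where Sox5 is highest; Sox6 is highest in smooth muscle.

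Sox4 was also found outside these lineages. Microglia-like cells held 299 and 296 CPM of Sox4, and 23.4% and 23.0% of them had a Sox4 UMI after thinning to 1000 UMIs. In oligodendrocyte-like cells, thinned in the same way, the share was 1.03% and 1.40%. After subtraction of free RNA, microglia-like cells kept 298 and 294 CPM. Sox11 in the same cells was 5.69 and 9.19 CPM and 0 after subtraction. Cajal-Retzius-like cells, early-born reelin-producing neurons, had Sox4 at 204 and 180.1 CPM. Endothelial-like cells had Sox4 at 51.1 and 99.3 CPM, higher in library 2. Choroid plexus-like cells had Sox9 at 79.1 and 334 CPM, with 29 and 339 cells, so the library 1 value rests on few cells. The libraries also differed in cluster mix: cluster 18 (median 6060 UMIs) had 28 and 229 cells and cluster 26 (median 44717 UMIs) 1 and 110. Erythroid-like cells, in which free RNA was the largest share, had Sox11 at 231 and 219 CPM and Sox4 at 275 and 151. Their Sox11 UMIs lay in 13 of 78 cells of library 1 and 8 of 32 cells of library 2, and Sox4 UMIs in 45 and 18 cells. The top cell of library 2 held 54 of 103 UMIs for Sox11 and 35 of 71 for Sox4. The source of these UMIs was not tested.

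Single cells decided some small values. In fibroblast-like cells of library 1, 54 of 57 Sox11 UMIs came from 1 cell, and in choroid plexus-like cells of library 2, 32 of 49. In COP-like cells of library 2, 60 of 165 Sox11 UMIs came from 1 cell, where library 1 was 60.4 and library 2 213 CPM.

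Between libraries, Sox9 was more often higher in library 2. Of 14 classes with at least 10 Sox9 UMIs in each library, 11 had the higher CPM in library 2; the 95% interval of the ratio lay above 1 in 10 classes and below 1 in 0, and the median ratio of library 2 to library 1 was 1.38 (range 0.519 in fibroblast-like to 4.22 in choroid plexus-like cells). The choroid plexus-like ratio compares libraries with an unlike mix of clusters, as given above. Sox9 was also higher in library 2 in free RNA (72.3 and 136 CPM). Of the 10 classes, endothelial-like, venous endothelial-like, pericyte-like, microglia-like, erythroid-like and nIPC-like cells lay below these levels in both libraries. RGL-like, astrocyte-like, cycling-like and choroid plexus-like cells lay above them. Whether free RNA set the ratios was not tested. For Sox4, 9 of 20 classes had intervals above 1 and 3 below, and for Sox17 1 of 5 above and 2 below. Genotype and library cannot be told apart in these ratios.

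Across the 22 classes, the genes most like each member by Pearson's r of log2(CPM + 10), among 8754 genes with at least 50 CPM in a class, are given as a description; classes of the same library share its preparation. Sox11 was most like Dcx (r = 0.97), a microtubule protein of immature neurons, Mex3a (r = 0.96) and Rcor2 (r = 0.96), and Sox4 most like Cdk4 (r = 0.93), Mex3a (r = 0.93) and Hnrnpa1 (r = 0.90). Dcx is also a marker by which neuroblast-like cells were named, as are Hopx for RGL-like and Olig1 for OPC-like cells, both given below. Sox2 was most like Nckap5 (r = 0.96), Fabp7 (r = 0.92) and Pcdh10 (r = 0.91), Sox21 most like Ptprz1 (r = 0.93), Fabp7 (r = 0.93) and Gpr37l1 (r = 0.93), and Sox9 most like Gm5089 (r = 0.91), Hopx (r = 0.88) and Id4 (r = 0.86). Sox10 was most like Gal3st1 (r = 0.98), Gjc3 (r = 0.97) and Erbb4 (r = 0.97), and Sox8 most like Sox2ot (r = 0.91), its antisense neighbour 2810468N07Rik (r = 0.91) and Olig1 (r = 0.90). Sox17 was most like Srarp (r = 1.00), Cyyr1 (r = 1.00) and Sox18 (r = 0.99), with the highest r of any member. Sox5 was most like Pou3f2 (r = 0.85), Rftn2 (r = 0.84) and Nckap5 (r = 0.83), and Sox6 most like Sox21 (r = 0.87), Fabp7 (r = 0.83) and Sema5b (r = 0.82). Among the members themselves, r was highest for Sox4 with Sox11 (0.87), Sox6 with Sox21 (0.87) and Sox2 with Sox21 (0.86), and lowest for Sox2 with Sox17 (-0.41).

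All 7 contrasts are set side by side in the plot of log2 differences. Of 55 member tests, 45 passed the threshold, and 34 of these kept their call under every alternative with a test, while 11 lost it under at least 1. Many genes passed in general: 36.2% of all genes were called higher and 36.3% lower in progeny against RGL. The smallest shares were 11.1% higher and 10.1% lower, in arterial against other endothelial. The 55 tests reuse the same genes and classes and are not independent.

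**Figure D5:**
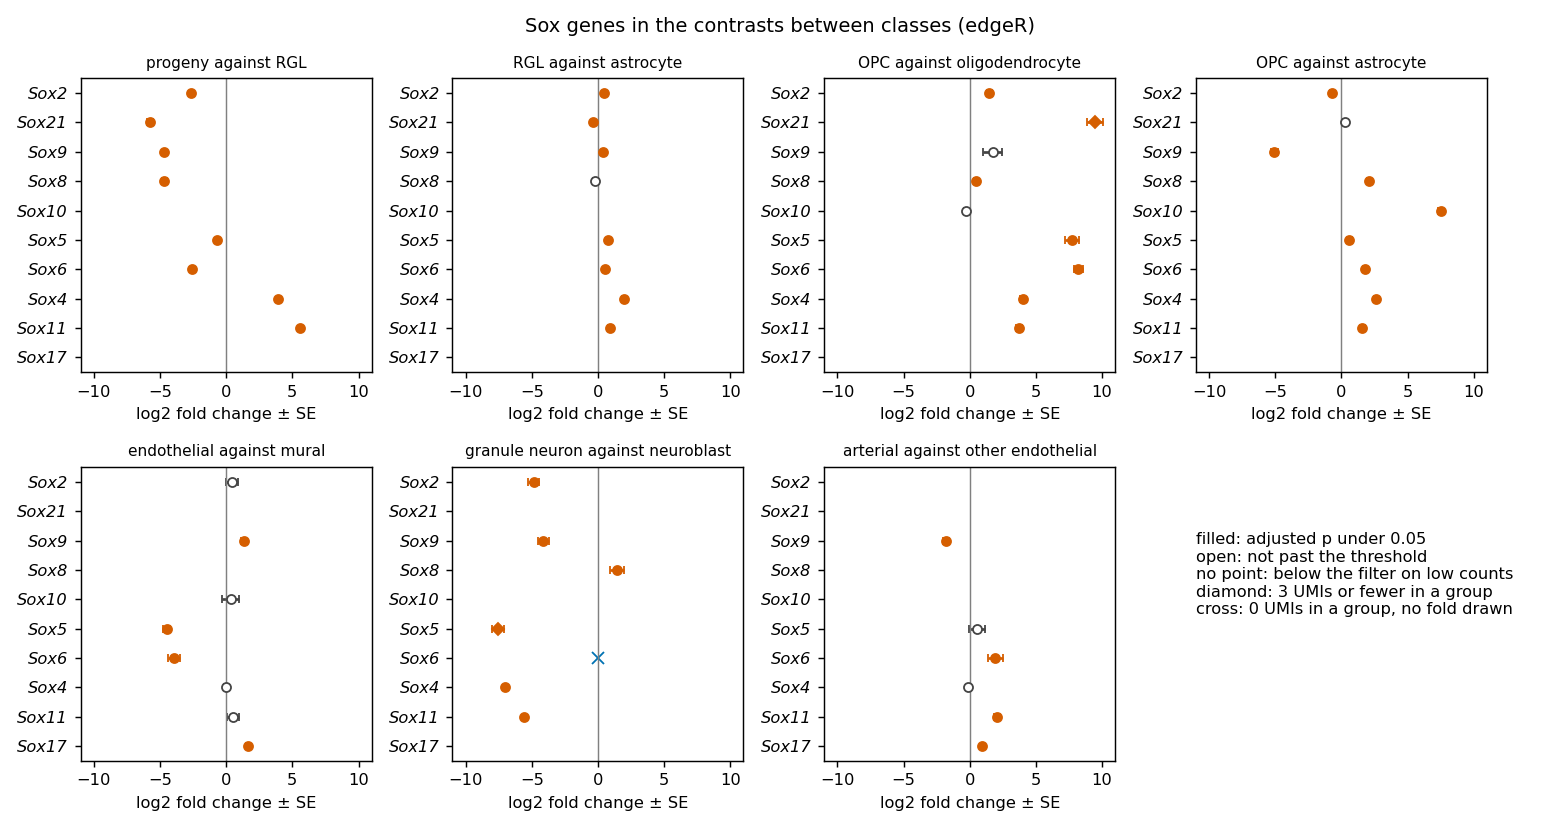
Log2 fold change ± SE (edgeR) of the 10 Sox genes in 7 contrasts between classes; a positive value is higher in the class named first, filled points have an adjusted p under 0.05, diamonds mark groups with 3 UMIs or fewer, the cross a group with 0 UMIs and no point a gene below the filter. Sox4 and Sox11 lie right of 0 and the other tested members left of 0 in progeny against RGL, and Sox9 and Sox10 lie on opposite sides in OPC against astrocyte.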

How the data were processed

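The authors deposited raw UMI counts per gene and barcode (counts, not normalized) in 1 unfiltered matrix, per the file headers and values; the submitters' processing notes name Cell Ranger 4.0.0, the mm10 build and Scanpy 1.7.0. Barcodes with at least 1000 UMIs, 500 genes and at most 20% mitochondrial UMIs were kept (8255 and 8381), and Scrublet (scanpy 1.11.5, expected doublet rate 0.06) removed 226 and 252 as doublets. Libraries held 102897659 and 107266420 UMIs. Cells were clustered on 2975 variable genes without the Sox genes, the listed genes and mitochondrial genes (40 principal components, 15 neighbours, Leiden resolution 1) and named from marker lists (at least 3 markers in 25% of cells and a mean log2 score of 1). Cluster 17 stayed unnamed with a best score of 0.775. Cluster 25 met both limits but stayed unnamed for its low depth, with 0 of its best list's markers among its leading genes. The members, gene lists and markers were chosen with earlier results of these data known.

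Counts were summed per library and class. CPM has exact Poisson 95% intervals. Contrasts used edgeR 4.0.16 in R 4.3.3 (filterByExpr, TMM, quasi-likelihood test blocked on library, 2-sided, Benjamini-Hochberg over all genes tested, threshold 0.05); SEs were derived from the F statistic. Alternatives were DESeq2 1.42.0, total-count scaling, no filter, no block, a fit over all classes, a stricter mitochondrial limit, doublets kept, and clusters or libraries left out. The floor for a count of 0 is 3 counts. The edgeR step was tested on simulated counts with 200 changed genes per contrast: 91% to 97% of genes changed by 1 on the log2 scale were recovered, 100% at 2. The simulation had the same spread in every contrast, no library effect and changed genes above a minimum expected count only. That spread was below the biological coefficient of variation of OPC against oligodendrocyte (0.122), OPC against astrocyte (0.141) and endothelial against mural (0.0978). Recovery at those spreads and for genes with few UMIs was not tested. Named genes were all members, other Sox genes with at least 10 CPM in a class in both libraries, up to 4 genes per list by smallest adjusted p, and the 3 most similar genes per member. No comparison of control with cKO was made. Some listed genes are not reported here.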

Additional observations from a re-analysis of the deposited data

Results flagged for a closer look

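Cells left without a name also held SOXC transcripts. The best marker list of unnamed cluster 25 (111 cells, median 1905 UMIs) was that of neuroblasts, with 5 markers and a score of 1.255. The cluster stayed unnamed for its low depth, with 0 of these markers among its leading genes. Sox11 stood there at 2089 CPM in library 1 and 1588 in library 2, and Sox4 at 1547 and 843. Both were above the free RNA levels of 363 and 393 CPM for Sox11 and 359.5 and 363 for Sox4. These cells entered no contrast, and whether they are neuroblasts of low depth was not tested.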

How the results depend on the processing

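Of 108 counts of members called under alternatives, 94 stayed within 1.5 times the reported count. The count of lower members in RGL against astrocyte (1 as reported) was 0 with DESeq2, total-count scaling, no library block, a fit over all classes and doublets kept, and 2 with a mitochondrial limit of 10% and 2 without clusters under 2500 UMIs. It was 1 in OPC against oligodendrocyte without the filter (0 as reported, Sox10 being added) and 1 in OPC against astrocyte with total-count scaling (2 as reported). The count of higher members in granule neuron against neuroblast (1 as reported) was 0 with DESeq2 and with the fit over all classes. In arterial against other endothelial 1 member was higher with DESeq2 and 1 with no library block (3 as reported), and 0 were lower with DESeq2 (1 as reported). Of 423 fold changes, 384 kept direction and call, 23 lost and 6 gained a call, and 10 changed sign. With total-count scaling these were Sox8 in RGL against astrocyte (0.085), Sox10 in OPC against oligodendrocyte (0.47) and Sox4 in endothelial against mural (0.0076; 0.0072 without the filter, 0.0777 in the fit over all classes). With doublets kept, which re-clusters the cells, they were Sox2 (-0.68) and Sox11 (-0.12) in endothelial against mural and Sox4 in arterial against other endothelial (1.15, adjusted p = 3.94e-08). Without pericyte cluster 22, chosen after seeing the data like the shallow clusters, they were Sox4 (0.31) and Sox10 (-0.25) in endothelial against mural. The cause of these changes was not tested. Leaving out a library gives values with no test: Sox11 in arterial against other endothelial ran from -0.10 to 2.52. With doublets kept no cluster was named OPC, so both OPC contrasts gave no value. Every contrast compared classes within the same 2 libraries and was paired by library through the block; without this replicate block the counts moved only as given above. CPM changed by less than its interval in 440 of 440 values with a higher minimum of UMIs per cell, and moved in 154 of 440 when free RNA was subtracted. Several members rest on few UMIs in OPC-like and granule neuron-like cells, which limits the precision of their differences.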
